A study of Mus musculus with 35 samples.

Results

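Lymphoid tumours of Bcl6 knock-in mice were compared with sorted cells labelled plasma cells, chosen by array title: 4 tumour arrays and 3 plasma cell arrays, 7 of the 35 arrays of a series on mouse B-cell stages and B-cell tumours. The tumours (n = 4) are whole lymphoid tumours, and the labels call the strain Bcl6 transgenic and the genotype Bcl6 knock-in; their site and the age of the mice are not given in the sources used here. The plasma cells (n = 3) were sorted from bone marrow of wild-type B6 mice as B220-low, Cd138-positive and Cd93-negative cells. Lig4/p53 tumours (n = 6) are lymphoid tumours of double knock-out mice, and germinal centre B cells (n = 5) are B220-positive, PNA-high cells from the spleen of wild-type B6 mice. Plasmablasts (n = 4) are B220-positive, Cd138-positive and Cd93-negative cells from the spleen of wild-type B6 mice, and Myc/Bcl6 tumours (n = 3) are lymphoid tumours of dual-transgenic mice; their levels are given for some genes. The Lig4/p53 tumours and germinal centre B cells show where a difference is also found against another tumour or the normal stage that uses Bcl6. Nothing in the labels says whether replicates were separate mice or pools. The p-values rest on the spread between arrays of the same group, estimated over all 35 arrays of the series and not over these 7 alone. Strain and tissue differ together with the groups.

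Bcl6 is a zinc finger repressor that germinal centre B cells need and that is turned off when they become plasma cells. Prdm1 (Blimp-1), Xbp1 and Irf4 drive that step, after which the cell loses most B-cell surface proteins, enlarges its endoplasmic reticulum (ER) and secretes antibody. In the knock-in line, as background, Bcl6 is expressed from the immunoglobulin heavy chain locus, and some of the mice develop B-cell lymphoma. Whole tumours also hold macrophages, T cells and stroma, which a sort is meant to remove. Genes of such cells were still read in sorted germinal centre B cells, as given below. Interferon-gamma, made by T and NK cells, induces the chemokines Cxcl9 and Cxcl10 and families of GTPases in many cell types.

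Of 12393 genes measured, 823 (6.64%) were higher and 1501 (12.1%) lower in the tumours than in the labelled plasma cells (limma, Benjamini-Hochberg adjusted p under 0.05), and all genes together had a median difference of -0.10. All values are log2 intensities from RMA, and differences are tumours minus labelled plasma cells, given ± SE. The largest increases were in macrophage, stromal and interferon-induced genes: Lyz1, C1qb, Clu, Cxcl9, Iigp1 and Lyz2 differed by 7.71 to 9.29. The 12 largest decreases had no single theme in the lists used here and reached -5.64 (Ets2). Of the called genes 35.4% were higher. After renewed quantile normalization 51.1% of 1986 were, so the balance of directions depends on the scaling.

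Arrays of both groups differ in quality. The 18S rRNA signal was 4.14 to 4.65 in the tumours, against 4.02, 4.21 and 7.38 in the labelled plasma cells, while the other sorted groups were brighter. The 2 groups were set against each other because this signal is low in both. In germinal centre B cells it was 10.04 to 11.13, so differences from them given below cannot be told apart from array quality. With 18S as covariate 1 gene passed against them, in place of 3326. For Actb and Gapdh, the signal near the 3' end less that near the 5' end, which is large in short RNA, was 3.65 to 4.60 in the tumours, against 4.59, 4.46 and 0.451 in the labelled plasma cells. Tumour replicate 2 had a narrow spread, with an interquartile range of 2.15 against 3.25 to 3.78 in the other tumours, and correlated with them at only 0.83 to 0.85. Labelled plasma cell replicate 3 correlated with replicates 1 and 2 at 0.903 and 0.904, while those correlated with each other at 0.991. Without tumour replicate 2 and labelled plasma cell replicate 3, an alternative added after the data were seen, 558 genes were higher and 661 lower. Counts without both arrays are therefore given beside most groups below.

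Bcl6 itself was read at 6.23, 7.13, 6.79 and 8.52 in tumour replicates 1 to 4, against 3.47, 3.81 and 3.59 in the labelled plasma cells. All 4 tumours lay above all 3 labelled plasma cell arrays (3.54 ± 0.80, 11.7-fold, adjusted p = 0.00178). They also lay below all 4 plasmablast arrays (9.11 to 9.75) and all 5 germinal centre arrays (10.63 to 11.57). Tumours minus germinal centre B cells gave -4.06 ± 0.70 (adjusted p = 6.63e-05). The difference of the Bcl6 tumours from the Lig4/p53 tumours (4.78 to 6.44) did not pass (1.55 ± 0.67, adjusted p = 0.0854). A second, dimmer Bcl6 probe set gave 3.47 to 4.58 in the tumours and 3.05 to 4.29 in the labelled plasma cells. Whether either probe set lies in the part carried by the knock-in is not given. In whole tumours a lower level can come from fewer cells of a type or from less RNA per cell, and these cannot be told apart.

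The germinal centre protein Gcsam was near the bottom of the scale in both groups, at 2.83, 3.78, 2.68 and 3.14 in the tumours against 2.79, 2.71 and 4.26 in the labelled plasma cells, while germinal centre B cells had 6.17 to 9.05. Cd79a, the signalling chain of the B-cell receptor, was 6.80, 6.87, 6.97 and 7.22 in the tumours, against 9.88, 9.76 and 10.89 in the labelled plasma cells. The groups did not overlap (-3.22 ± 0.43, 9.29-fold lower in the tumours, adjusted p = 1.97e-06). Cd79a was also lower in the tumours than in germinal centre B cells (-3.96 ± 0.38, adjusted p = 3.73e-09) and Lig4/p53 tumours (-3.26 ± 0.36, adjusted p = 6.62e-08). Its partner Cd79b had the same direction against the labelled plasma cells (-1.55 ± 0.40, adjusted p = 0.00614), but adjusted p = 0.132 without the 2 doubted arrays. The B-cell surface protein Ms4a1 (CD20) was read at 9.68, 10.47, 10.63 and 7.79 in the tumours, against 10.14, 10.62 and 7.69 in the labelled plasma cells. These groups overlapped (0.16 ± 1.03, adjusted p = 0.944).

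The labelled plasma cells went against their label in part. Sdc1, which encodes Cd138 and was used in the sort, had 6.42, 5.22, 7.08 and 5.32 in the tumours, against 3.88, 4.60 and 5.71 in the labelled plasma cells, and 5.52 to 10.44 in plasmablasts. The difference did not pass (1.28 ± 1.02, adjusted p = 0.43). A probe set of Sdc1 that reached 8.05 in plasmablasts gave 5.12 to 8.23 in the tumours and 2.54 to 2.69 in the labelled plasma cells. Tnfrsf17 (BCMA), a survival receptor of plasma cells, was dim in both groups, at 3.5 to 4.73 in the tumours and 4.06 to 4.29 in the labelled plasma cells. The J chain gene Jchain, which links secreted IgM and IgA, was 12.15, 8.42, 10.59 and 11.71 in the tumours, against 10.11, 10.10 and 9.81 in the labelled plasma cells. The groups overlapped (0.71 ± 0.83, adjusted p = 0.618), and Lig4/p53 tumours had 3.24 to 5.49. Ms4a1 and Cd79a, by contrast, were bright in these arrays, as given above. They are called labelled plasma cells here for that reason, and no other name is given to them.

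**Figure D1:**
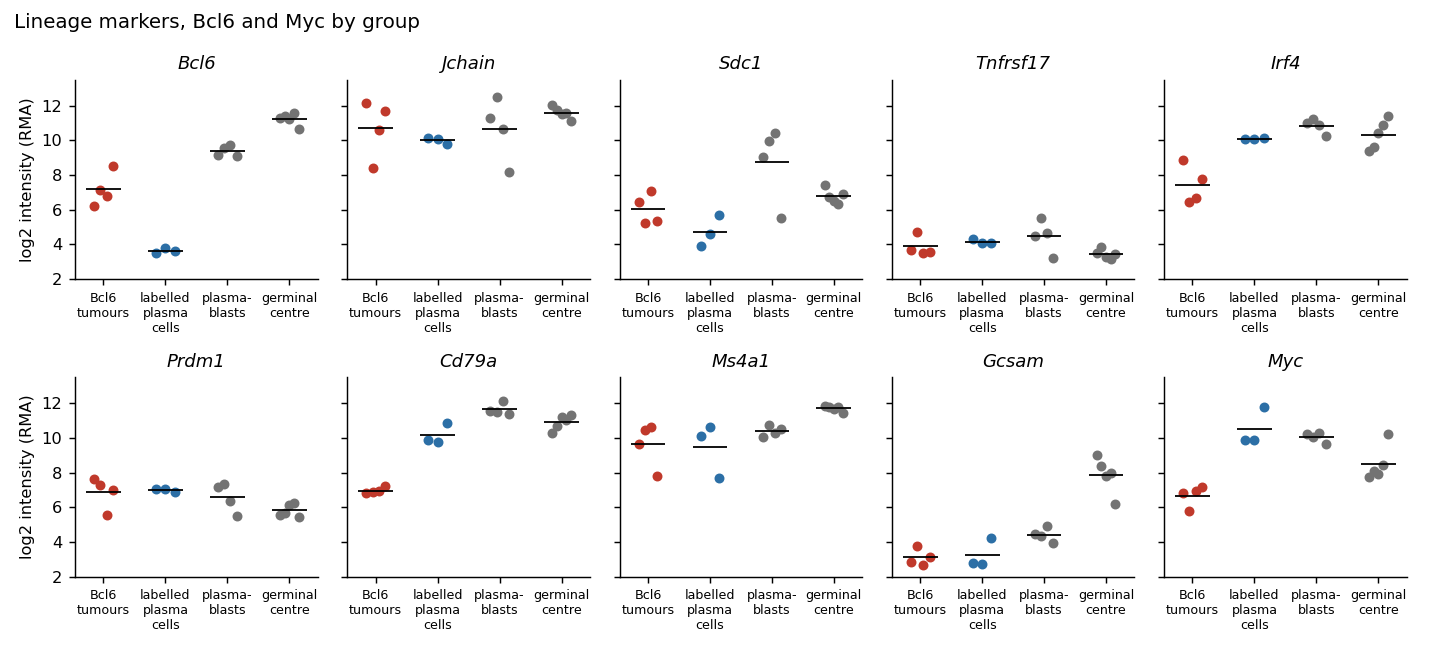
Log2 intensity (vertical axis) of lineage markers, Bcl6 and Myc in each array of the Bcl6 tumours (red), the arrays labelled plasma cells (blue), plasmablasts and germinal centre B cells (grey), with a bar at each group mean. Bcl6 in the tumours lies above the labelled plasma cells and below the plasmablasts and germinal centre B cells. Cd79a in the tumours lies below the other groups shown, and Sdc1 in the labelled plasma cells lies at 3.88 to 5.71.

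The regulators of the plasma cell program did not separate the groups as a set: of 30 measured genes 5 were higher and 3 lower in the tumours (6.64% and 12.1% of all genes were; median difference 0.22), and 3 and 4 without the 2 doubted arrays. Prdm1 was 7.64, 7.30, 5.55 and 6.99 in the tumours, against 7.05, 7.07 and 6.90 in the labelled plasma cells (adjusted p = 0.904). Irf4 was 8.88, 6.44, 6.67 and 7.76 in the tumours, against 10.08, 10.06 and 10.13 in the labelled plasma cells. The groups did not overlap, but the difference did not pass (-2.65 ± 1.11, adjusted p = 0.0929). Xbp1, the regulator of ER growth, was 10.16, 7.56, 7.95 and 8.49 in the tumours, against 8.44, 8.11 and 6.43 (adjusted p = 0.424), and the mean over its probe sets gave the opposite sign. Slamf7, a surface receptor of plasma cells and other lymphocytes, rose by 3.34 ± 0.48 (adjusted p = 7.27e-06). Derl3, a part of ER-associated degradation, rose by 2.98 ± 0.55 (adjusted p = 0.000208). Pim2, a survival kinase, was 6.48, 5.00, 5.09 and 5.28 in the tumours, against 8.86, 8.55 and 8.80 in the labelled plasma cells (-3.28 ± 0.45, adjusted p = 3.11e-06). Fkbp11, an ER prolyl isomerase of secretory cells, fell by 3.77 ± 0.68 (adjusted p = 0.000162), while its 2 dimmer probe sets differed by 0.8 and 0.41 the other way. Atf4, a stress transcription factor, was lower on the probe set used (-1.68 ± 0.35, adjusted p = 0.00083). Another probe set averaged 10.58 in the tumours and 9.35 in the labelled plasma cells, and the mean over its probe sets gave -0.05 (adjusted p = 0.924), so the direction of Atf4 depends on the probe set.

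Genes of the secretory route had negative medians, but few passed. Of 24 ER folding and disulfide enzymes 0 were higher and 4 lower (16.7% lower, against 12.1% of all genes; 0 higher and 10 lower at an unadjusted p under 0.05; median -1.01), and 1 was lower without tumour replicate 2 and labelled plasma cell replicate 3 (median -0.04). Pdia4, a disulfide isomerase, was 7.21, 5.15, 4.52 and 6.23 in the tumours, against 7.78, 7.72 and 9.62 (-2.60 ± 0.64, adjusted p = 0.00434, 0.148 without both arrays). Ero1b, which reoxidizes these enzymes, fell by 1.77 ± 0.52 (adjusted p = 0.0149, 0.0468 without both arrays). The other 2 that fell were Erp29 (-1.8 ± 0.52, adjusted p = 0.0136) and Txndc11 (-2.45 ± 0.82, adjusted p = 0.0337). Of 26 genes of ER translocation and signal peptide handling 4 were lower and 0 higher (15.4% lower; 6 and 2 at an unadjusted p under 0.05; median -0.89), also a share near that of all genes. They included the signal peptidase subunit Spcs1 (-1.61 ± 0.46, adjusted p = 0.0131) and the translocon subunit Sec61b (-1.49 ± 0.46, adjusted p = 0.0222). Of the 26, 0 were lower without both arrays (1 at an unadjusted p under 0.05). Of 33 genes of ER export, Golgi and ERAD 4 were higher and 2 lower (median -0.28, but 0.08 after quantile normalization), and 1 was higher and 0 lower without both arrays (1 lower at an unadjusted p under 0.05). Surf4, an ER cargo receptor, was higher on the probe set used (2.16 ± 0.30, adjusted p = 4.33e-06), but 3 of its 4 other probe sets were lower in the tumours by 1.14 to 1.42. Copb2 and Derl1 were likewise higher on the probe sets used, by 1.77 and 2.93. Their other probe sets differed by -1.07 (Copb2) and by -0.27, -1.86 and -2.1 (Derl1). Of 1060 called genes with several probe sets, 76 (7.2%) had another probe set that differed by over 1 the other way.

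Antibody genes showed few variable segments in both groups. Of 13 kappa variable segments measured, 1 or 2 exceeded a log2 intensity of 6 in each tumour, and 1 in each array labelled plasma cells, against 10 in every plasmablast array and 8 to 10 in every germinal centre array. The Lig4/p53 tumours were as low, with 1 or 2 segments in each. The 18S rRNA signal was at most 7.38 in these groups of few segments. It was at least 10.04 in the plasmablast and germinal centre arrays, so segment number and array quality cannot be told apart here. The segment above 6 in all 7 arrays was Igkv8-30 (11.3 to 13.23 in the tumours, 10.23 to 12.13 in the labelled plasma cells), whose probe set was bright in all normal arrays shown too. Heavy chain constant genes differed from tumour to tumour: Ighm was 7.65, 12.95, 12.39 and 13.44 in tumour replicates 1 to 4, Ighg3 was 13.36, 7.77, 9.44 and 9.49, and Igha was 8.78, 5.00, 12.64 and 8.19. Replicate 1 was thus high in Ighg3 and low in Ighm, replicate 3 high in both Ighm and Igha, and replicates 2 and 4 high in Ighm. The labelled plasma cells were alike, with Ighm at 13.38, 13.41 and 13.14, Igha at 12.63, 12.61 and 12.34, and Ighg3 at 8.01, 7.98 and 6.78. Ighm and Ighg3 did not pass (adjusted p = 0.293 and 0.157). Igha did (-3.87 ± 1.33, adjusted p = 0.0384), with overlapping groups and adjusted p = 0.299 without both doubted arrays. Some variable segments are close in sequence, so their probe sets may share signal.

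**Figure D2:**
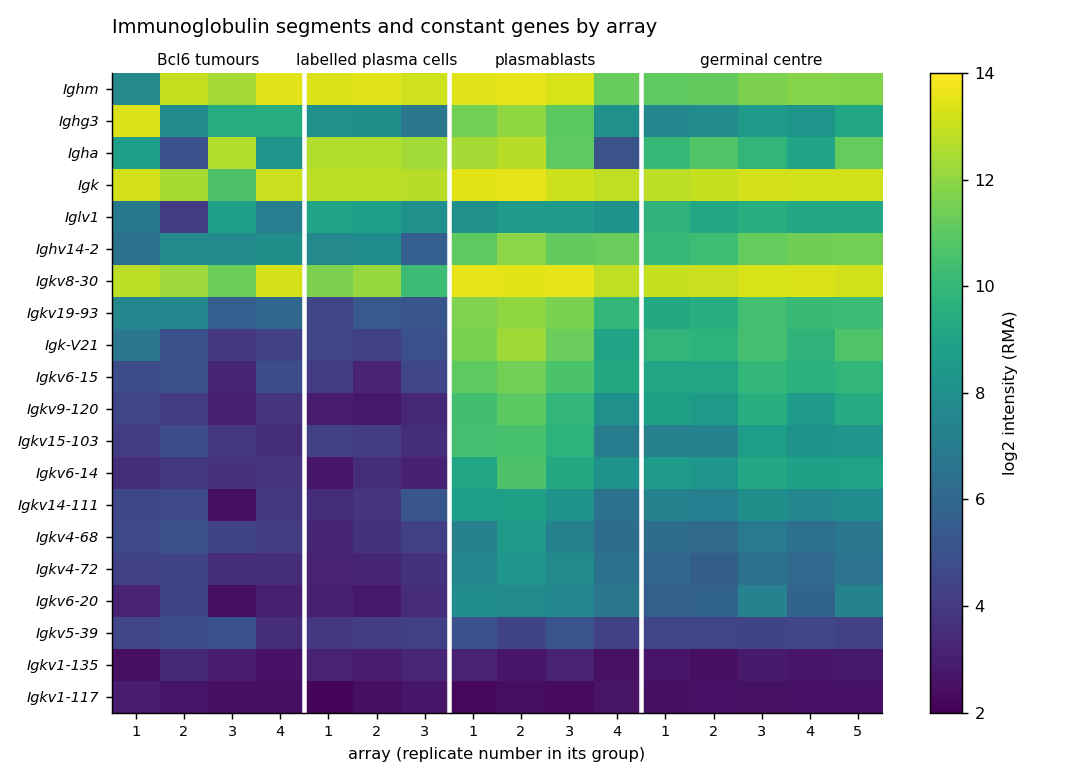
Log2 intensity (colour) of 20 immunoglobulin segments and constant genes (rows) in each array (columns) of the Bcl6 tumours, the arrays labelled plasma cells, plasmablasts and germinal centre B cells. Most kappa variable segments are dark in the Bcl6 tumours and labelled plasma cells and bright in the other groups, and Ighm, Ighg3 and Igha differ between the tumours.

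Interferon-gamma induced chemokines and GTPases rose together: 15 of 24 measured genes were higher in the tumours and 1 was lower, the receptor chain Ifngr2 (-2.10 ± 0.68, adjusted p = 0.0282; 62.5% higher, against 6.64% of all genes; median 1.92), and 16 were higher without the 2 doubted arrays. Cxcl9, a chemokine that attracts T cells, was read at 10.30, 9.59, 10.83 and 11.91 in tumour replicates 1 to 4, against 2.80, 2.68 and 2.79 in the labelled plasma cells (7.90 ± 0.57, 239-fold, adjusted p = 1.15e-11). Every tumour was bright, and every labelled plasma cell array was near the bottom of the scale. Cxcl10, which binds the same receptor, was 7.70, 7.28, 8.24 and 9.45 in the tumours, against 3.09, 3.06 and 4.59 in the labelled plasma cells (4.59 ± 0.66, adjusted p = 5.97e-06). The GTPases that act against intracellular microbes followed: Iigp1 was 11.05, 9.06, 10.59 and 11.05 in the tumours, against 2.60, 2.48 and 2.93 (7.77 ± 0.60, adjusted p = 3.38e-11). Gbp2 was 9.49, 7.34, 9.79 and 10.62 in the tumours, against 5.38, 5.5 and 6.12 (3.64 ± 0.60, adjusted p = 4.54e-05). Ifi47 rose by 4.79 ± 0.74 (adjusted p = 2.08e-05). Tumour replicate 2 was lowest and replicate 4 highest, or level with replicate 1, in Cxcl9, Cxcl10, Iigp1, Gbp2 and Ifi47. The ligand Ifng, named here outside the rule for named genes, was 4.70, 3.71, 5.61 and 7.86 in the tumours, against 2.57, 2.88 and 2.62 (2.78 ± 0.71, adjusted p = 0.00538).

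Against germinal centre B cells 11 of the 24 genes were higher and 3 lower in the tumours (13.0% and 13.9% of all genes), and against Lig4/p53 tumours 16 were higher and 0 lower (10.9% and 15.5% of all genes). Cxcl9 exceeded both, by 8.08 ± 0.50 (adjusted p = 4.72e-13) and 8.04 ± 0.48 (adjusted p = 1.16e-13), while Ifi47 passed against neither (adjusted p = 0.1 and 0.0678). Tumours labelled Myc/Bcl6 read Cxcl9 at 6.39 to 10.82. Of 22 genes of the type I interferon response, which shares many targets, 9 were higher and 0 lower than in the labelled plasma cells (median 1.16). That is 40.9% higher, against 6.64% of all genes, and 8 were higher without the 2 doubted arrays. They included the sensor Ifih1 (2.99 ± 0.57, adjusted p = 0.000294), the transporter-like Rtp4 (4.08 ± 0.60, adjusted p = 8.3e-06), the antiviral Oasl2 (3.69 ± 0.51, adjusted p = 2.99e-06) and Mx1 (2.66 ± 0.62, adjusted p = 0.00246).

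Promoters of genes that rose in this group are shown because the letters bound by their known activators can be read there. RefSeq sequence of GRCm38.p6, from 250 bases before to 50 after the start, was found for 19 of the 24 genes. The capitals mark TTCNNNGAA, the core bound by Stat proteins, which the Bcl6 protein is also known to bind, and a pair of GAAA with any 2 bases between them, the core of the interferon-stimulated response element, on either strand. Both hold the letters GAA, so matches can overlap. Gbp7, Irgm2 and Igtp, outside the rule for named genes, were picked after their values were seen because they hold both, and Cxcl9 and Cxcl10 because they are the chemokines of the group.
Gbp7 (chr3:142530086-142530385, + strand): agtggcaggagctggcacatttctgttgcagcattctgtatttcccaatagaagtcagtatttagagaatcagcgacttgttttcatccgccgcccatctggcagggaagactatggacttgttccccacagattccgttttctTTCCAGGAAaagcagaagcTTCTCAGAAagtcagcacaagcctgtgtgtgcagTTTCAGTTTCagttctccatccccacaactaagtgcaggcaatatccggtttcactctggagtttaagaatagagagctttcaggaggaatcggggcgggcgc
Irgm2 (chr11:58214727-58215026, + strand): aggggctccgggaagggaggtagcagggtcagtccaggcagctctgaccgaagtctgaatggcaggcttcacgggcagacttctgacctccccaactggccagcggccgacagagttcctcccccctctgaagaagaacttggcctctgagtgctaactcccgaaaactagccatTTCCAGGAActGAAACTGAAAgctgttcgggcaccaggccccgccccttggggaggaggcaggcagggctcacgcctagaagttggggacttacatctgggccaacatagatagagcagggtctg
Igtp (chr11:58199306-58199605, + strand): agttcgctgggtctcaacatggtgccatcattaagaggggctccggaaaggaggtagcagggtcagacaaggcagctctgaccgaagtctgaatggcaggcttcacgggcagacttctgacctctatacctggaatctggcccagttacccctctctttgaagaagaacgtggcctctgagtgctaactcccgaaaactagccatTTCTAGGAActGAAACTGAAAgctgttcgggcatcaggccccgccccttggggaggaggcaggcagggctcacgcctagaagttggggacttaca
Cxcl10 (chr5:92348840-92349139, - strand): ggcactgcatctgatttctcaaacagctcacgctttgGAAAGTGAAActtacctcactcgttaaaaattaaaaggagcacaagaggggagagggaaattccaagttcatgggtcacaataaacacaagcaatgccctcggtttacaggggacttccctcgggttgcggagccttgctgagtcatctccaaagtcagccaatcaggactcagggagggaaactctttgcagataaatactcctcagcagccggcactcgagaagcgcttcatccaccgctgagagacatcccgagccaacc
Cxcl9 (chr5:92328030-92328329, - strand): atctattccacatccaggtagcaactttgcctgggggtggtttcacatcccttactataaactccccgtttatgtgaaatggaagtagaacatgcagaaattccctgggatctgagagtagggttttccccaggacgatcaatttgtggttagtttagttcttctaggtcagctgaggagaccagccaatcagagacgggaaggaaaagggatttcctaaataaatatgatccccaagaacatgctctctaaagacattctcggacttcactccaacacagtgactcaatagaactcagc

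In Irgm2 and Igtp the Stat core starts 75 and 45 bases before the start of the gene, and the response element core at 64 and 34. Gbp7 holds the Stat core at 106 and 87 bases and the response element core at 53 bases before its start, Cxcl10 holds only the response element core, at 213 bases, and in Cxcl9 neither set of letters was found in this window. Of the 12 risen genes with a promoter, 5 held TTCNNNGAA and 7 held the GAAA pair, against 8.45% and 3.84% of the 9887 measured genes with a promoter (8.30% and 3.44% of all 32851 promoters). Among all 19 genes of the list with a promoter, 6 and 8 held them. The list was made of interferon-gamma induced genes, so these shares are no test of the rise. Irgm2 and Igtp are near-identical around these letters, so their matches are not independent. A match is only a match of letters. The 3 GTPases with both differed in size: Gbp7 was 10.29, 9.14, 9.60 and 10.90 in the tumours, against 5.31, 5.47 and 7.51 (3.89 ± 0.81, adjusted p = 0.000844), Irgm2 rose by 1.81 ± 0.58 (adjusted p = 0.0255) and Igtp by 1.69 ± 0.61 (adjusted p = 0.0489, with overlapping groups).

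Macrophage genes were the next group to rise, with 16 of 34 measured genes higher and 1 lower in the tumours (median 1.92). The 16 are 47.1%, against 6.64% of all genes, and 15 were higher without the 2 doubted arrays. In 19 of the 34 every tumour lay above every labelled plasma cell array, against 9.64% of all genes. C1qb, a chain of complement C1q made by tissue macrophages, was 12.01, 12.64, 12.36 and 12.66 in the tumours, against 3.18, 3.26 and 3.11 in the labelled plasma cells (9.24 ± 0.69, 603-fold, adjusted p = 2.31e-11). C1qc rose by 5.27 ± 0.67 (adjusted p = 9.16e-07). Lyz2, the lysozyme of myeloid cells, was 10.63, 10.86, 11.59 and 12.10 in the tumours, against 3.70, 3.62 and 3.42 (7.71 ± 0.66, adjusted p = 2.86e-10). Its neighbour Lyz1, a near-identical copy whose reading may share signal, rose by 9.29 ± 0.57 (adjusted p = 2.04e-13) on the probe set used. Among its other probe sets, the brighter differed by 8.49, and the dimmer averaged 4.11 in the tumours and 3.26 in the labelled plasma cells. Csf1r, the receptor for macrophage growth factor, was 11.21, 12.63, 11.97 and 12.55 in the tumours, against 8.68, 8.81 and 7.37 (3.80 ± 0.65, 13.9-fold, adjusted p = 8.31e-05). It was bright in the labelled plasma cells too, where C1qb and Lyz2 were near the bottom of the scale. Mertk, which takes up dying cells, rose by 4.76 ± 0.53 (adjusted p = 7.44e-08). Clec7a, a receptor for fungal glucan, rose by 4.51 ± 0.54 (adjusted p = 2.71e-07). The defining markers C1qa, Cd68, Adgre1 and Marco did not pass (adjusted p = 0.0914, 0.397, 0.0854 and 0.124).

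How far the macrophage genes stood out depended on the partner. Csf1r, C1qb and Mertk were also higher in the tumours than in germinal centre B cells (4.35 ± 0.57, 3.71 ± 0.61 and adjusted p = 1.04e-05 for Mertk). Lyz2, at a mean of 11.3 in the tumours, was not shown to differ from the germinal centre arrays, whose mean was 10.3 (adjusted p = 0.202). In Myc/Bcl6 tumours C1qb was 11.86 to 13.0 and Lyz2 7.57 to 10.33. The mean level of the list was 6.28 to 7.77 in the tumours and 4.43 to 4.59 in the labelled plasma cells, against 5.33 to 6.38 in germinal centre B cells. The labelled plasma cells thus held the least macrophage signal of these groups. The part of these cells in the other differences was not tested.

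**Figure D3:**
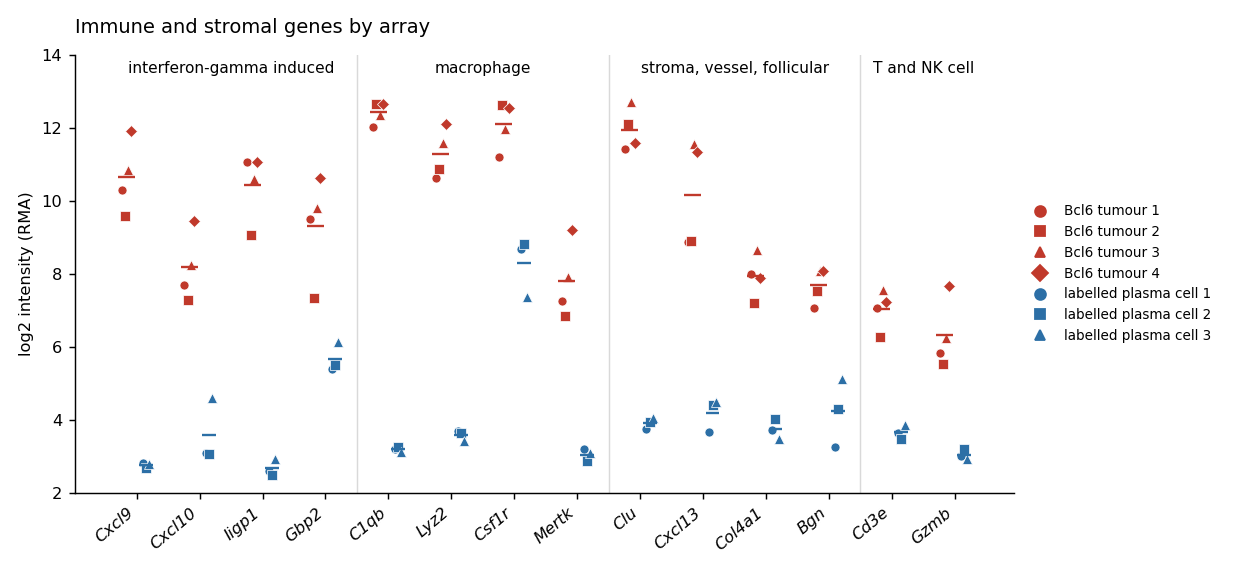
Log2 intensity (vertical axis) of interferon-induced, macrophage, stromal and T or NK cell genes in each of the 4 Bcl6 tumour arrays (red) and 3 arrays labelled plasma cells (blue), with symbols for the replicate and a bar at each group mean. The groups do not overlap in any of the 14 genes, and Cxcl9 lies at 9.59 to 11.91 in the tumours and 2.68 to 2.80 in the labelled plasma cells.

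Genes of stroma, vessels and follicular dendritic cells had the highest share of increases among the lists, with 19 of 29 higher. That is 65.5%, against 6.64% of all genes, and the median was 2.36. The 1 lower was the venule adhesion molecule Madcam1 (-2.86 ± 0.60, adjusted p = 0.000884). Without the 2 doubted arrays 18 were higher. Clu (clusterin), a secreted chaperone that follicular dendritic cells make, was 11.41, 12.09, 12.72 and 11.59 in the tumours, against 3.74, 3.93 and 4.05 in the labelled plasma cells (8.05 ± 0.85, 264-fold, adjusted p = 2.83e-08). Cxcl13, the chemokine by which those cells draw B cells into follicles, was 8.87, 8.90, 11.55 and 11.33 in the tumours, against 3.67, 4.39 and 4.48 (5.98 ± 0.68, adjusted p = 1.06e-07). Tumour replicates 3 and 4 were the higher pair for Cxcl13. The basement membrane collagen Col4a1 rose by 4.19 ± 0.47 (adjusted p = 7.5e-08), the matrix proteoglycan Bgn by 3.46 ± 0.37 (adjusted p = 3.64e-08) and the fibroblast receptor Pdgfra by 4.22 ± 0.54 (adjusted p = 1.06e-06). Fibrillar collagens followed, with Col1a1 up by 2.61 ± 0.60 (adjusted p = 0.00228) and Col3a1 by 2.97 ± 0.55 (adjusted p = 0.000222), and Sparc, a matrix glycoprotein, rose by 3.13 ± 0.52 (adjusted p = 5.24e-05). The endothelial markers Pecam1 (-0.48 ± 0.46, adjusted p = 0.531) and Cdh5 (0.77 ± 0.42, adjusted p = 0.21) did not pass. Of the 29 genes 25 were higher than in germinal centre B cells and 22 higher than in Lig4/p53 tumours (13.0% and 10.9% of all genes were). Clu exceeded these groups by 6.79 ± 0.74 and 7.47 ± 0.72, but was 6.99 to 12.77 in Myc/Bcl6 tumours (median 12.58).

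Other genes among the 12 largest increases mark adhesion and several cell types. Vim, the intermediate filament vimentin, was 12.64, 12.72, 13.03 and 13.13 in the tumours, against 6.58, 6.71 and 4.44 in the labelled plasma cells (6.97 ± 0.42, adjusted p = 2.04e-13). Tgfbi, a matrix protein of macrophages and stroma, rose by 7.31 ± 0.76 (adjusted p = 2.24e-08), Selenop, a plasma selenium carrier, by 6.78 ± 0.54 (adjusted p = 5.85e-11) and Vcam1, an adhesion molecule, by 6.26 ± 0.81 (adjusted p = 1.06e-06). Ms4a4b, a membrane protein of T cells, was 10.73, 9.27, 10.26 and 11.24 in the tumours, against 3.33, 3.03 and 3.60 (7.06 ± 0.76, adjusted p = 3.64e-08). Its other, dimmer probe set gave 3.88 to 4.7 in the tumours and 2.74 to 4.02 in the labelled plasma cells. Tspan13, a tetraspanin, rose by 6.32 ± 0.45 (adjusted p = 1.13e-11). Selenop, Vcam1, Ms4a4b and Tspan13 were not shown to differ from germinal centre B cells (adjusted p = 0.725, 0.415, 0.696 and 0.359).

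T-cell markers were higher for 7 and lower for 2 of 23 genes, with a median of 0.71. These counts are 30.4% and 8.7%, against 6.64% and 12.1% of all genes. Without the 2 doubted arrays 7 were higher and 3 lower. Cd3e, a chain of the T-cell receptor complex, was 7.05, 6.25, 7.55 and 7.22 in the tumours, against 3.64, 3.48 and 3.86 (3.36 ± 0.41, adjusted p = 4.44e-07). Cd3g rose by 2.96 ± 0.48 (adjusted p = 3.56e-05) and Cd8a by 2.25 ± 0.57 (adjusted p = 0.0053). Cd4 did not pass (adjusted p = 0.232). Cd5 (-2.43 ± 0.49, adjusted p = 0.000564), a receptor of T cells and some B cells, was lower, as was Ctla4, an inhibitory receptor, at 4.59, 6.81, 5.11 and 4.93 in the tumours against 8.76, 8.60 and 8.86 in the labelled plasma cells (-3.38 ± 0.64, adjusted p = 0.00028). Of 14 NK-cell and cytotoxic genes 5 were higher (35.7%) and 1 lower (7.1%), with a median of 1.52. The lower 1 was the pore protein Prf1 (-1.22 ± 0.43, adjusted p = 0.0452). Gzmb, a granule protease, rose by 3.27 ± 0.53 (adjusted p = 3.96e-05), Ccl5, a chemokine, by 4.43 ± 0.77 (adjusted p = 0.000108) and Fasl, a death ligand, by 2.72 ± 0.40 (adjusted p = 8.56e-06). Without the 2 doubted arrays 7 were higher and 0 lower (also 0 at an unadjusted p under 0.05). Against germinal centre B cells T and NK markers did not stand out upward, with 1 of 23 and 2 of 14 higher and 6 and 10 lower. Among all genes 13.0% were higher and 13.9% lower in that comparison. Against Lig4/p53 tumours 13 of 23 T-cell markers were higher and 1 lower, and 7 of 14 NK-cell markers were higher. There 10.9% of all genes were higher and 15.5% lower.

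Granulocyte markers separated the tumours from each other more than the groups. Their mean level was 3.83, 5.53, 3.62 and 7.88 in tumour replicates 1 to 4, against 3.31, 3.42 and 3.75 in the labelled plasma cells, so replicates 2 and 4 carried them. S100a8, a neutrophil calcium-binding protein, was 2.91, 8.96, 4.72 and 11.84 in the tumours, against 2.95, 2.39 and 3.03. The groups overlapped (4.31 ± 1.31, adjusted p = 0.0189, 0.141 without the 2 doubted arrays). Of 18 granulocyte genes 3 were higher (16.7%, against 6.64% of all genes), and 0 without both arrays (7 at an unadjusted p under 0.05). Of 17 erythroid genes 1 was higher, Hbb-b2 (3.45 ± 0.81, adjusted p = 0.00263), and 1 lower, Hba-a2 (-2.43 ± 0.69, adjusted p = 0.0127), both globins. Each is 5.9% of the list. Of 9 platelet genes 0 passed in either direction (1 higher and 0 lower at an unadjusted p under 0.05). Of 15 liver genes 2 were higher (13.3%), and 0 without the 2 doubted arrays (2 at an unadjusted p under 0.05). They were Hp (adjusted p = 0.0423), with overlapping groups, and Serpina1b, at 2.94, 6.91, 8.95 and 8.0 in the tumours against 2.45, 2.67 and 2.56 (4.14 ± 1.20, adjusted p = 0.0135). The defining liver markers Alb, Apoa2 and Ttr did not pass. Of 18 dendritic cell genes 4 were higher and 2 lower (22.2% and 11.1%, against 6.64% and 12.1% of all genes). Without the 2 doubted arrays 4 were higher and 3 lower. Fscn1, an actin bundler of mature dendritic cells, rose by 5.82 ± 0.86 (adjusted p = 8.83e-06) on the probe set used. Its other, dimmer probe sets differed by -0.09, 0.61 and 0.49. Ccl22, a chemokine of the same list, was among the lower (-4.66 ± 0.63, adjusted p = 2.75e-06).

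**Figure D4:**
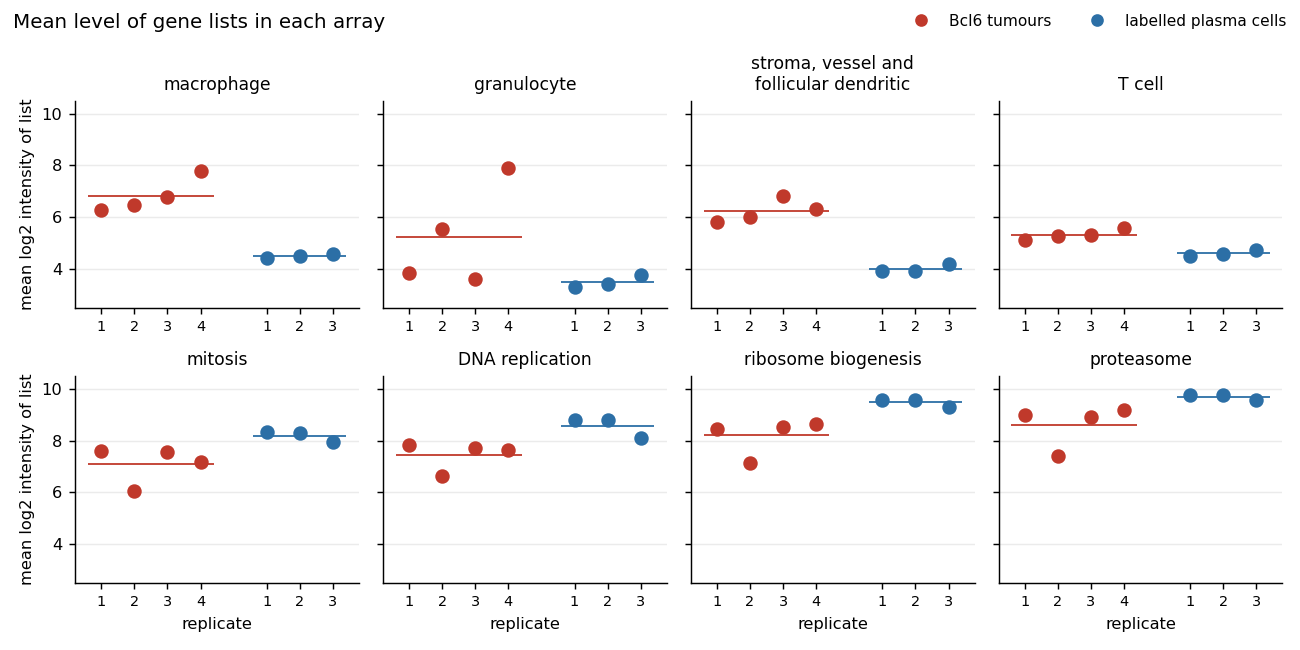
Mean log2 intensity of the measured members of 8 gene lists (vertical axis) in each Bcl6 tumour array (red) and each array labelled plasma cells (blue), by replicate number, with a line at each group mean. Granulocyte markers lie at 3.62 to 7.88 in the tumours, and tumour replicate 2 is the lowest tumour for mitosis, DNA replication, ribosome biogenesis and proteasome genes.

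B-lineage groups other than Cd79a moved little as sets. Among all genes 6.64% were higher and 12.1% lower. Of 25 mature B-cell genes 3 were higher and 3 lower (median -0.03), of 20 B-cell receptor signalling genes 0 were higher and 3 lower (median -0.54), and of 24 germinal centre genes 3 were higher and 4 lower (median 0.07). Without the 2 doubted arrays 1 and 1 of the mature B-cell genes, 0 and 1 of the receptor signalling genes and 3 and 2 of the germinal centre genes were higher and lower. Fcrla, an intracellular Fc receptor-like protein of B cells, was 9.21, 7.86, 9.72 and 8.93 in the tumours, against 5.45, 5.63 and 4.35 in the labelled plasma cells (3.79 ± 0.57, adjusted p = 1.44e-05). Among germinal centre genes Basp1 rose by 3.36 ± 0.77 (adjusted p = 0.00203), the B-cell coactivator Pou2af1 by 1.49 ± 0.35 (adjusted p = 0.00276) and the transcription factor Irf8 by 2.04 ± 0.52 (adjusted p = 0.00505). Stap1, an adaptor of B-cell receptor signalling, was 4.86, 4.45, 5.25 and 5.32 in the tumours, against 7.93, 7.74 and 8.62 (-3.12 ± 0.49, adjusted p = 2.62e-05). Mef2b, an activator of Bcl6, was lower with overlapping groups (-1.82 ± 0.54, adjusted p = 0.0168, 0.375 without the 2 doubted arrays). Against germinal centre B cells themselves, 12 of the 24 germinal centre genes and 12 of the 25 mature B-cell genes were lower in the tumours, and 0 and 1 were higher. In that comparison 13.9% of all genes were lower and 13.0% higher.

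Reported targets of Bcl6 repression were higher for 5 of 26 genes and lower for 0 (3 at an unadjusted p under 0.05; 19.2% higher, against 6.64% of all genes; median 0.05), and for 4 and 0 without the 2 doubted arrays. One increase was Id2, a helix-loop-helix inhibitor, at 8.83, 8.29, 9.03 and 9.80 in the tumours against 7.23, 7.11 and 5.54 in the labelled plasma cells (2.36 ± 0.60, adjusted p = 0.00569, 0.0616 without the 2 doubted arrays). The others were Cdkn1b (p27), a cyclin-dependent kinase inhibitor (1.68 ± 0.43, adjusted p = 0.00593), Pdcd1lg2, the PD-1 ligand PD-L2 (1.62 ± 0.43, adjusted p = 0.00699), Cdkn2a (1.08 ± 0.39, adjusted p = 0.0489) and the cyclin Ccnd2 (2.23 ± 0.80, adjusted p = 0.049). Cdkn1b, Pdcd1lg2 and Cdkn2a had overlapping groups, and the other Cdkn1b probe set and a dimmer Id2 probe set were lower in the tumours, by 1.83 and 0.53 on average. Id2 was also higher than in Lig4/p53 tumours (adjusted p = 0.000142), but not shown to differ from germinal centre B cells (adjusted p = 0.887).

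MHC class II presentation was split, with 2 of 14 genes higher and 3 lower (6.64% and 12.1% of all genes were), and 1 and 2 without the 2 doubted arrays. H2-Aa, a class II chain, was 12.11, 11.81, 12.14 and 12.22 in the tumours, against 9.66, 9.75 and 9.38 (2.47 ± 0.50, adjusted p = 0.000579). Its other probe set averaged 8.44 in the tumours and 8.89 in the labelled plasma cells. Ctss, the protease that trims the class II invariant chain, rose by 1.74 ± 0.45 (adjusted p = 0.00609). Rfxap, a subunit of the factor that drives class II genes, fell by 2.56 ± 0.46 (adjusted p = 0.000165), and the lysosomal protease Lgmn by 2.91 ± 0.59 (adjusted p = 0.000659). Among early B-cell genes Vpreb3 fell by 3.55 ± 0.69 (adjusted p = 0.000401). Il7r, the receptor for interleukin 7, rose by 1.78 ± 0.60 (adjusted p = 0.0341) on the probe set used. Its other probe set differed by -0.16. Of 17 early B-cell genes 1 passed in each direction, and 0 higher and 1 lower without the 2 doubted arrays (1 and 1 at an unadjusted p under 0.05).

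Myc, the growth regulator, was 6.80, 5.77, 6.92 and 7.19 in the tumours, against 9.90, 9.87 and 11.78 in the labelled plasma cells. Every tumour lay below every labelled plasma cell array (-3.85 ± 0.72, 14.4-fold lower in the tumours, adjusted p = 0.000271). Myc was also lower than in Lig4/p53 tumours (-4.24 ± 0.61, adjusted p = 5.07e-06) and germinal centre B cells (-1.81 ± 0.64, adjusted p = 0.0334). Of 26 genes of ribosome biogenesis and growth, many of them known Myc targets, 10 were lower and 0 higher (16 and 0 at an unadjusted p under 0.05; 38.5% lower, against 12.1% of all genes; median -1.34). They included the rRNA processing factors Rrp9, at 5.07, 4.01, 4.33 and 5.32 in the tumours against 6.64, 6.38 and 7.64 (-2.20 ± 0.42, adjusted p = 0.000347), Nop16 (-1.89 ± 0.37, adjusted p = 0.000418) and Npm1, nucleophosmin (-2.16 ± 0.61, adjusted p = 0.0113). Polr1b, a subunit of RNA polymerase I, fell by 2.01 ± 0.49 (adjusted p = 0.00347). Without the 2 doubted arrays 3 of the 26 were lower (median -1.13). Against Lig4/p53 tumours 20 of the 26 were lower (15.5% of all genes were). Against germinal centre B cells 3 were lower and 1 higher (13.9% and 13.0% of all genes were).

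Most genes of DNA replication and mitosis did not pass, and those that did were lower. The labelled plasma cells were high beside plasmablasts in both lists. Their mean level for replication was 8.1 to 8.8, against 6.68 to 7.97 in plasmablasts and 7.5 to 8.71 in germinal centre B cells. For mitosis it was 7.93 to 8.32, against 5.65 to 7.14 and 6.68 to 8.35. Of 28 DNA replication genes 7 were lower and 0 higher (12.1% of all genes were lower; 15 and 1 at an unadjusted p under 0.05; median -1.25), and 4 were lower without the 2 doubted arrays. In 16 of the 28 every tumour lay below every labelled plasma cell array, against 19.7% of all genes. Orc1, a subunit of the origin recognition complex, was 4.76, 4.74, 4.16 and 3.63 in the tumours, against 6.44, 6.25 and 6.51 in the labelled plasma cells (-2.08 ± 0.37, adjusted p = 0.000143). The histone chaperone Chaf1b fell by 2.5 ± 0.55 (adjusted p = 0.0016) and the helicase factor Cdc45 by 2.11 ± 0.50 (adjusted p = 0.00306). Of 29 mitosis genes 5 were lower and 0 higher (17.2% lower; 11 and 0 at an unadjusted p under 0.05; median -1.02), and 1 was lower without both arrays: Ndc80, a kinetochore protein, at 7.41, 6.29, 7.04 and 7.31 in the tumours against 9.0, 8.91 and 8.60 (-1.83 ± 0.45, adjusted p = 0.00397). Cdk4, the kinase that starts the cell cycle, was 8.11, 6.49, 8.06 and 7.96 in the tumours, against 9.73, 9.61 and 10.88 (-2.42 ± 0.44, adjusted p = 0.000178). Its inhibitor Cdkn2b (p15) was 7.67, 6.20, 5.66 and 4.37 in the tumours, against 3.27, 3.00 and 3.96 (2.57 ± 0.62, adjusted p = 0.00344).

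Of 27 proteasome subunits 8 were lower (29.6%, against 12.1% of all genes) and 1 higher, with a median of -1.17. Psmb5 (-2.57 ± 0.52, adjusted p = 0.000684) and Psma7 (-2.78 ± 0.61, adjusted p = 0.00156) were among the lower. Without the 2 doubted arrays 0 were lower (7 at an unadjusted p under 0.05) and 2 higher. Of 31 genes of oxidative phosphorylation 7 were lower and 4 higher (22.6% and 12.9%, against 12.1% and 6.64% of all genes). Their median was -0.75, and 1 was lower and 3 higher without both arrays. Cox6a1 was higher on the probe set used (1.86 ± 0.34, adjusted p = 0.00018), but its other probe set averaged 7.73 in the tumours and 8.83 in the labelled plasma cells. Sdhd and Uqcrb were also higher on the probe sets used, by 1.68 and 2.46. Their other probe sets differed by -1.84 and -1.56, so the direction of these genes depends on the probe set. Sdhc, a subunit of complex II, fell by 2.33 ± 0.52 (adjusted p = 0.00157). In the Bcl2 family 1 of 15 genes was higher, the survival gene Bcl2l2 (1.91 ± 0.46, adjusted p = 0.00306), and 2 were lower, Bcl2l11 (Bim; adjusted p = 0.0361 on the probe set used, with another at 7.30 in the tumours and 5.92 in the labelled plasma cells) and Pmaip1 (Noxa), which promotes cell death (-2.68 ± 0.55, adjusted p = 0.000755). Of 21 immediate early genes 1 was higher, Egr2 (2.39 ± 0.60, adjusted p = 0.00464), and 2 lower, of which 0 without the 2 doubted arrays (1 at an unadjusted p under 0.05). Shares in the Bcl2 family (6.7% higher, 13.3% lower) and the immediate early genes (4.8% and 9.5%) were near those of all genes.

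**Figure D5:**
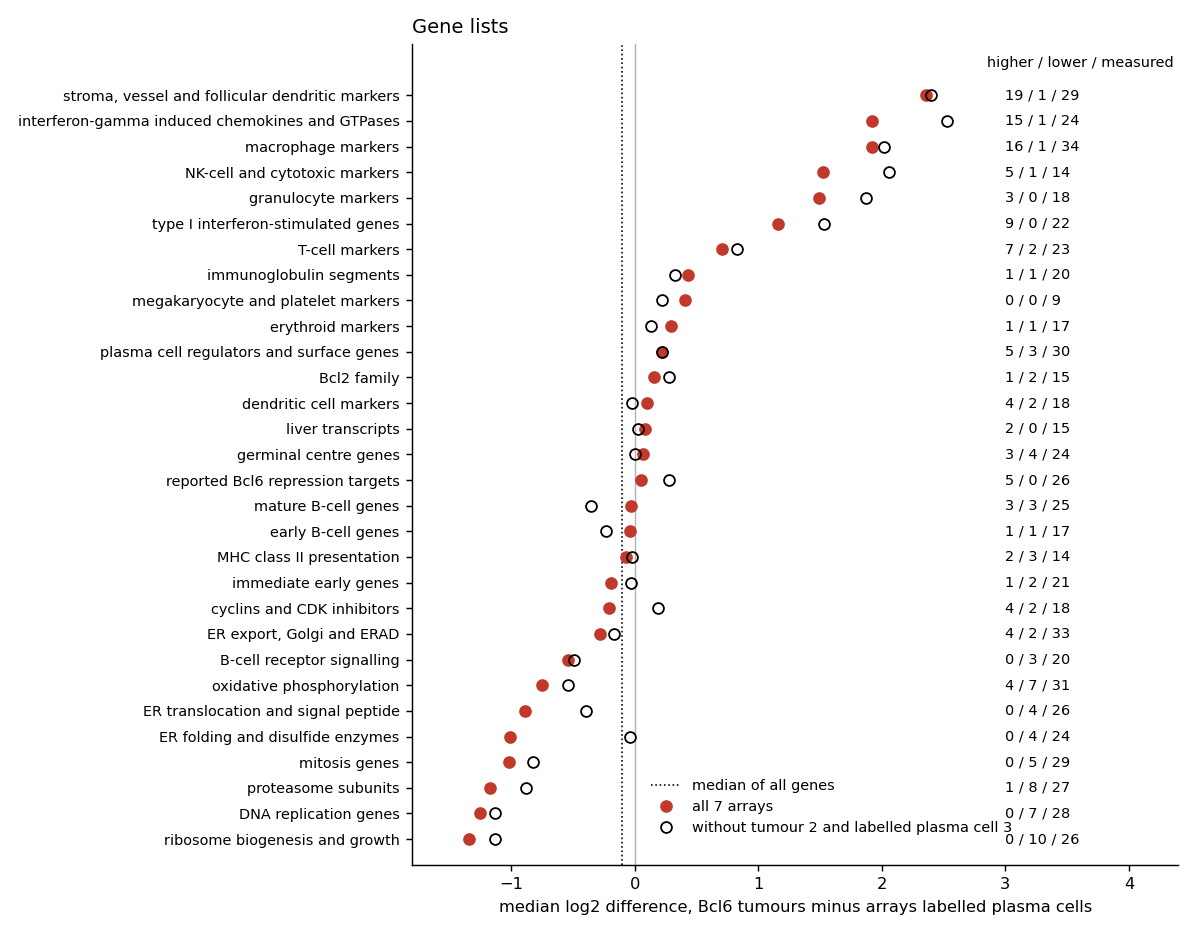
Median log2 difference, Bcl6 tumours minus arrays labelled plasma cells (horizontal axis), of the measured members of each gene list, with all 7 arrays (filled) and without tumour replicate 2 and labelled plasma cell replicate 3 (open), and the numbers of genes higher, lower and measured. Stromal, interferon-gamma and macrophage lists lie at 1.92 to 2.36, and ribosome biogenesis, DNA replication, proteasome and mitosis lists at -1.34 to -1.02, against a median of all genes of -0.10 (dotted).

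Among the 12 largest decreases, Prickle1, Ppef2, Cyp11a1, Enah and Tnfsf9 were brighter in all 3 labelled plasma cell arrays than in any other array of the series. Ets2, a transcription factor, was 6.68, 3.44, 6.92 and 6.92 in the tumours, against 11.35, 11.43 and 12.12 in the labelled plasma cells (-5.64 ± 0.97, adjusted p = 8.79e-05). It was also lower than in germinal centre B cells (-4.09 ± 0.85, adjusted p = 0.000578). So was Ackr3, a scavenger receptor for chemokines (-4.43 ± 1.02 against the labelled plasma cells, adjusted p = 0.0021), by 3.96 ± 0.89. The other 10 did not pass against germinal centre B cells. Prickle1, of planar cell polarity, was 3.00, 4.46, 4.13 and 4.00 in the tumours, against 9.51, 9.99 and 8.61 (-5.48 ± 0.59, adjusted p = 3.64e-08). It was not shown to differ from germinal centre B cells (adjusted p = 0.897). Ppef2, a phosphatase best known from photoreceptors, differed by -5.06 ± 0.40 (adjusted p = 5.85e-11). Cyp11a1, the enzyme that begins steroid synthesis, was 3.75, 3.73, 3.90 and 4.20 in the tumours, against 8.56, 8.54 and 8.04 (-4.49 ± 0.38, adjusted p = 2.36e-10). The signals to other cells Ccl22, a chemokine (-4.66 ± 0.63, adjusted p = 2.75e-06), and Tnfsf9, the ligand of 4-1BB (-4.40 ± 0.46, adjusted p = 2.18e-08), were low in the tumours. Enah, an actin regulator (-4.74 ± 0.43), Spats2 (-4.94 ± 0.71), AF067061 (-5.33 ± 0.74), Nrep (-4.63 ± 0.72) and Cth, an enzyme of cysteine synthesis (-4.46 ± 0.77), completed the 12, with adjusted p-values of 1.47e-09 to 9.04e-05.

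On the probe sets used, the markers of the sort did not pass; the other Sdc1 probe set given above did not overlap between the groups. Ptprc, which encodes B220 and CD45, was 10.70, 10.81, 11.62 and 11.69 in the tumours, against 10.40, 10.76 and 9.32 in the labelled plasma cells (1.04 ± 0.57, adjusted p = 0.212). Cd93, by whose absence the labelled plasma cells were chosen, was 5.35, 5.09, 6.91 and 7.5 in the tumours, against 8.14, 7.84 and 6.03 (-1.13 ± 0.89, adjusted p = 0.427).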

How the data were processed

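Each of 35 Affymetrix oligonucleotide arrays measured amplified RNA, and the deposited table holds the authors' log2 values from RMA, per the submitters' processing notes; its range, 1.71 to 14.29, is that of a log2 scale. The software version is not given in the sources used here. Of 22690 probe sets 64 are controls, 20380 carry 1 gene symbol in the platform annotation, 691 several and 1555 none; the brightest probe set over all arrays stood for each of 12393 genes. An array gives no read depth, and precision is limited by how many arrays a group has.

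Groups came from the labels. One limma model with a mean per group was fitted over all 35 arrays, so groups share the estimate of spread, with Benjamini-Hochberg adjustment over all genes; the steps were tested on simulated data. Fits ran in R 4.3.3 (limma 3.58.1, statmod 1.5.0). Tables and figures were made in Python 3.11.15 with matplotlib 3.10.9, scipy 1.17.1, pandas 2.3.3 and numpy 2.4.6. Named genes were the 12 largest increases and 12 largest decreases with groups that do not overlap, up to 5 members of smallest p per list, defining markers that did not pass, and the markers of the comparison. Not all of them are given above, among them the NK-cell markers Klrd1, Nkg7 and Ncr1. The members and lists were chosen with earlier results of these data known. Replicate numbers came from the labels; deviations of same-numbered arrays correlated at 0.1, -0.289 and -0.291, so they were not used as pairs.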

Additional observations from a re-analysis of the deposited data

Results flagged for a closer look

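Among the 131 named genes, 6 had 1 tumour array far from the other 3 by Dixon's test. In all 6 it was replicate 2, the array with the narrow spread, and chance alone marks about 1 in 20 groups. It was lowest for Basp1 at 7.40 (others 9.07 to 9.21), Cdk4 at 6.49 (7.96 to 8.11), Ero1b at 6.77 (8.77 to 9.06) and Ets2 at 3.44 (6.68 to 6.92). It was highest for Ccl22 at 6.37 (4.08 to 4.24) and Tnfrsf17 at 4.73 (3.5 to 3.7). The part of the array's quality in these values was not tested.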

How the results depend on the processing

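Of 111 named genes that passed, 62 passed under each of the 21 alternatives that were run. The count of 2324 called genes became 4378 with array weights, 1484 without labelled plasma cell replicates 1 and 2, and 1219 without tumour replicate 2 and labelled plasma cell replicate 3, and lay between 1644 and 2238 when 1 array was left out. With the replicate number as a block, a pairing the labels do not give, it was 2027. With the spread taken from the 2 compared groups alone it was 1693. Of the called genes 35.4% were higher in the tumours, against 51.1% after quantile normalization, 43.6% with equal medians (which moved the median of all genes to 0.036), 46.5% with the interquartile range as covariate and 44.5% without tumour replicate 2. Against germinal centre B cells 3326 genes passed, 5010 with array weights, 872 with the 3' minus 5' difference as covariate and 1 with 18S rRNA as covariate, since 18S and group nearly coincide there, and 2334 to 3296 with 1 array left out; against Lig4/p53 tumours 3271 passed, 4921 with array weights and 2072 (without tumour replicate 2) to 3404. Signs turned, with the cause not tested, with the mean of all probe sets for Cdkn1b (-0.07), Ighm (0.12), Ms4a1 (-0.43), Surf4 (-0.33) and Xbp1 (-0.30); without labelled plasma cell replicates 1 and 2 for Cd4 (-0.09) and Cd93 (0.18); with array weights for Gcsam (0.15), Ms4a1 (-0.98) and Pecam1 (0.15); with the 3' minus 5' covariate for Gcsam (0.04), Ms4a1 (-0.32) and Pecam1 (0.09); with the 18S covariate for Gcsam (0.02) and Ms4a1 (-0.23); without both doubted arrays for Gcsam (0.14), Ms4a1 (-1.01) and Pecam1 (0.17); without the 3 arrays of narrow spread for Ms4a1 (-0.11); after quantile normalization for Prdm1 (0.43) and with equal medians for Prdm1 (0.00). With 1 array left out, Gcsam ranged from -0.42 to 0.36, Pecam1 from -0.87 to 0.20, Prdm1 from -0.39 to 0.31 and Ms4a1 from -0.74 to 0.78.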

Other observations

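All 3 labelled plasma cell arrays exceeded each of the other 32 arrays in 277 genes, by over 1 in 32 of them. The kinase Camk4 (8.36 to 8.66, against at most 5.37 elsewhere), the BMP receptor Bmpr1a (9.21 to 9.93, against 6.63), the cytokine Il10 (6.94 to 7.90, against 4.37), Acsl6 (6.66 to 7.52, against 4.28) and the peptide hormone Adm (8.54 to 9.41, against 6.50) had the largest gaps besides genes given above. These genes were chosen for their values, and no test was made.

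The 4 Bcl6 tumours exceeded each of the other 31 arrays in 13 genes, by over 1 in 2, Ercc6l2 (8.92 to 9.28, against 7.70) and the sulfotransferase Chst1 (8.09 to 10.44, against 7.08). With the arrays labelled Myc/Bcl6 set aside there were 159 such genes, 45 by over 1, among them complement factor Cfb (7.90 to 10.32, against 4.71) and the matrix protein Igfbp7 (8.66 to 10.60, against 5.82).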
